A study of Arabidopsis thaliana with 6 samples.

Results

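GDSL-type esterases and lipases form a large family of plant hydrolases. A list of 60 Arabidopsis thaliana loci of this family was read from arrays of seedlings that overexpress ASL9 and of wild-type seedlings. A locus was a member of the measured group when the platform annotation paired a probe set with that gene alone, which held for 49 of the 60 loci, among 13286 genes measured in this way in the whole series. Each of the 49 was read by 1 probe set. Of the other 11 loci, 5 were read only by probe sets paired with several genes and 6 were not named in the annotation used. The 2 groups were 3 arrays labelled ASL9-ox, a transgenic line overexpressing ASL9, and 3 arrays labelled wild type, of the ecotype Col-0. The sources used here do not give the promoter of the transgene, the number of independent lines or the ecotype of the transgenic plants. ASL9, also known as LBD3, belongs to the LBD family of plant transcription factors. All plants were 2 weeks old, their seeds had been surface-sterilised with bleach, and they were raised upright on MS agar. The tissue was labelled as the aerial parts, while the extraction text names harvested seedlings without saying that roots were removed.

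GDSL enzymes are named after the short motif around their catalytic serine, which lies near the start of the protein rather than in its middle as in classical lipases. They cut or transfer ester bonds in lipids and other acylated compounds, and many are secreted. In plants some family members join cutin monomers outside the epidermal cell or break cutin down, others act on suberin in the root, some lower the oil content of seeds, and some take part in defence. Most of the family has no known substrate.

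The arrays carried 22810 probe sets, and the values were MAS5 signals on a linear scale without detection calls. Signals below 16 made up 36.8% to 37.6% of an ASL9-ox array and 36.9% to 37.9% of a wild-type array. Pearson's correlation over the probe sets tested, which are not independent of each other, was 0.972 to 0.991 within a group and 0.891 to 0.93 between the groups. The number of arrays, 3 per group, limits the precision. The labels do not say whether the 3 samples of a group were grown separately, and the p-values then cover only the spread among these arrays, possibly a technical one. The annotation used pairs 0 probe sets with ASL9 itself, so the overexpressed gene could not be identified to check the labels. The largest change among all probe sets tested was a lower signal in the arrays labelled ASL9-ox. The annotation does not name this probe set. It read 10.9 ± 3.56 in ASL9-ox arrays and 5101 ± 162 in wild-type arrays (SD, n = 3 each). Whether it reads ASL9 cannot be told from the annotation used. A probe set for ASL9 would be expected to be higher in the line overexpressing it, and the group labels remain unchecked. Every direction given here rests on the labels and would turn round if the labels of the groups were exchanged.

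The tissue label was set against markers. All 4 measured leaf markers of 14 listed were bright on every array, at 133 to 5502, and their summed signal ran from 14327 to 15073 on ASL9-ox arrays and from 10157 to 11100 on wild-type arrays. Of 16 root markers 4 were measured, and their summed signal was 414 to 471 on ASL9-ox arrays and 2856 to 3192 on wild-type arrays. One of them, PYK10, a beta-glucosidase gene of roots and hypocotyls that is not confined to roots, read 408, 429 and 453 on the ASL9-ox arrays and 3168, 2847 and 3149 on the wild-type arrays. The other 3 markers, EXPA7, EXPA18 and AT5G66390, were at 0.485 to 13.3 on all arrays. The groups overlapped for EXPA7 and EXPA18. AT5G66390 was too dim to be tested. Its groups did not overlap, with 0.485, 0.535 and 0.927 in ASL9-ox and 5.73, 4.72 and 5.21 in wild type. The 3 measured anther and pollen markers of 9 listed were at 0.326 to 10.5. The part of leaf and root tissue in the GDSL results was not tested. In RNA of mixed cell types fewer cells of a type and less RNA per cell cannot be told apart. Wild-type replicate 2 stood apart from the other arrays in seed genes. The 5 measured seed maturation markers of 17 listed read 309 to 988 on it and 0.276 to 9.88 on the other 5 arrays. Its residual SD over all probe sets tested was 0.228 (log2), while the other arrays had 0.128 to 0.160, and results that depend on it are given with and without it.

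GDSL genes changed in both directions, and more of them were higher than lower in the ASL9-ox arrays. Groups were compared with limma's moderated test on log2(signal + 16), and "rose" and "fell" mean an adjusted p below 0.05 after Benjamini-Hochberg adjustment over all 17059 probe sets tested. On this scale the change of a dim gene comes out too small. Of the 49 members, 39 passed the filter on dim probe sets and were tested, and the other 10 were too dim. Of the 39, 16 rose, 8 fell and 15 did not pass. Among all probe sets tested 41.6% were called, 24.6% as higher and 17% as lower, while for the GDSL genes tested the shares were 61.5% called, 41% as higher and 20.5% as lower. Past the threshold, 9 GDSL genes (23.1%) changed 2-fold or more on the log2(signal + 16) scale, 6 higher and 3 lower. Among all probe sets the share was 7.14%, 2.61% higher and 4.53% lower. The median log2 fold change was 0.16 over the 39 genes and 0.08 over all probe sets tested, and the middle of the distribution, from the lower to the upper quartile, ran from -0.26 to 0.76 for the GDSL genes and from -0.16 to 0.29 for all probe sets. The members were chosen with earlier results of these data known, and the part of that choice in these shares was not tested. When the arrays were centred on the bacterial and phage hybridization controls, 14 GDSL genes rose and 8 fell. Of all calls, 46.0% in place of 59.2% were then higher.

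**Figure D1:**
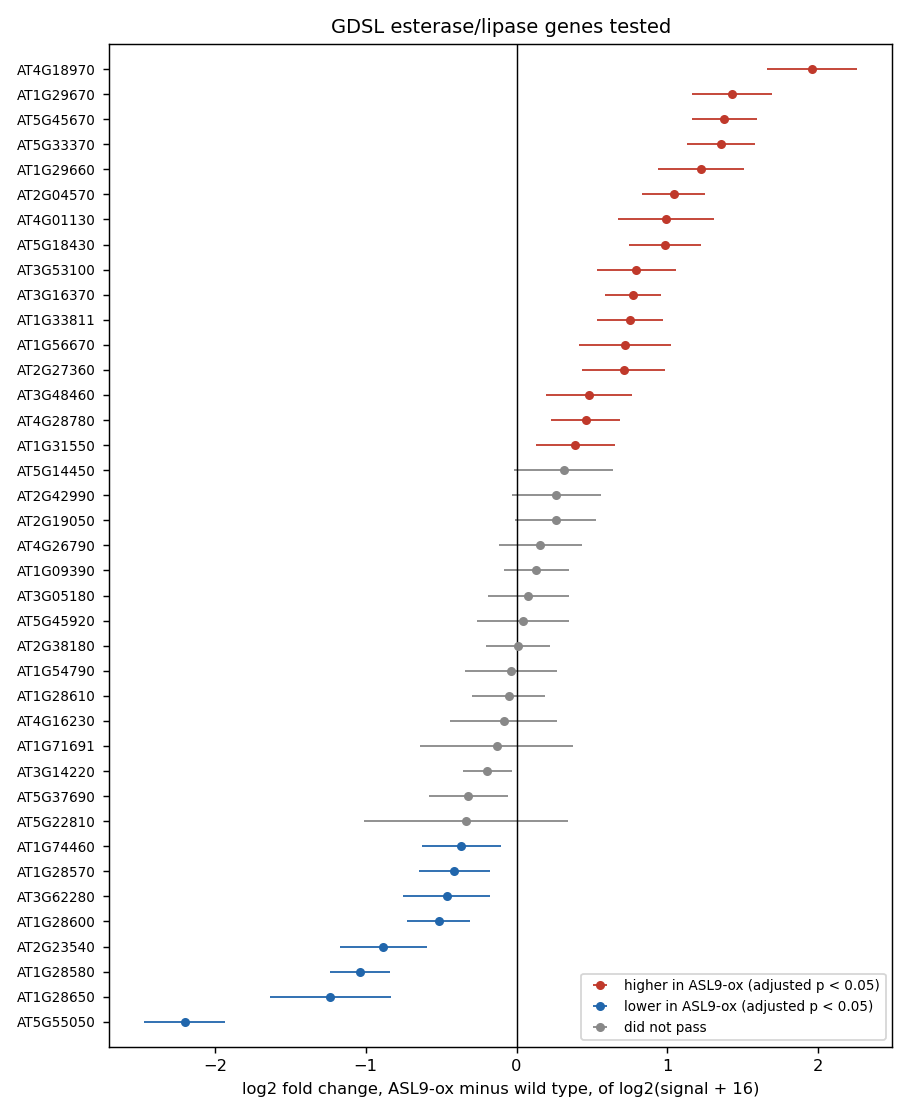
Log2 fold change (ASL9-ox minus wild type, on the log2(signal + 16) scale) of the 39 GDSL genes tested, 1 row per gene, with bars for the 95% confidence interval of limma's fit. The 16 genes that rose are at the top, the 8 that fell at the bottom, and the 15 that did not pass lie between them.

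**Figure D2:**
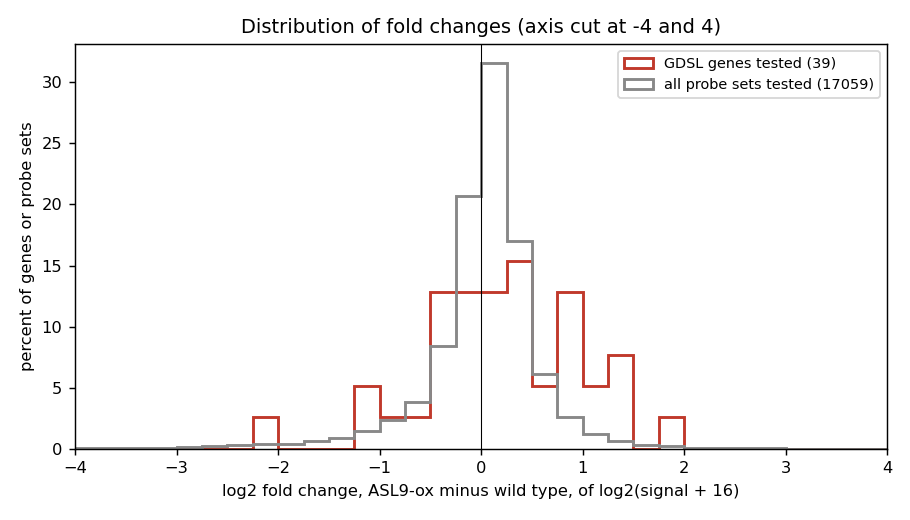
Percent of the 39 GDSL genes (red) and of all 17059 probe sets tested (grey) in each step of log2 fold change (ASL9-ox minus wild type, on the log2(signal + 16) scale). The GDSL curve is wider than that of all probe sets on both sides of 0. The GDSL genes were chosen with earlier results of these data known.

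Of the 39 GDSL genes tested, 71.8% had groups without overlap, 46.2% higher and 25.6% lower. Among all probe sets tested the share was 54%, 32.8% higher and 21.2% lower. All 16 genes that rose and all 8 that fell had no overlap, but a low adjusted p with 3 arrays per group makes overlap unlikely. Of the 16 that rose, 15 had group means above 16 in both groups. Of the 8 that fell, 3 had both means above 16. The other 5 included 4 with the mean of the ASL9-ox arrays alone below 16 and 1 with both means below it, where a fall cannot be set against background without detection calls. The signals of different GDSL genes are not ranked against each other, because each depends on the oligonucleotides of its own probe set.

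**Figure D3:**
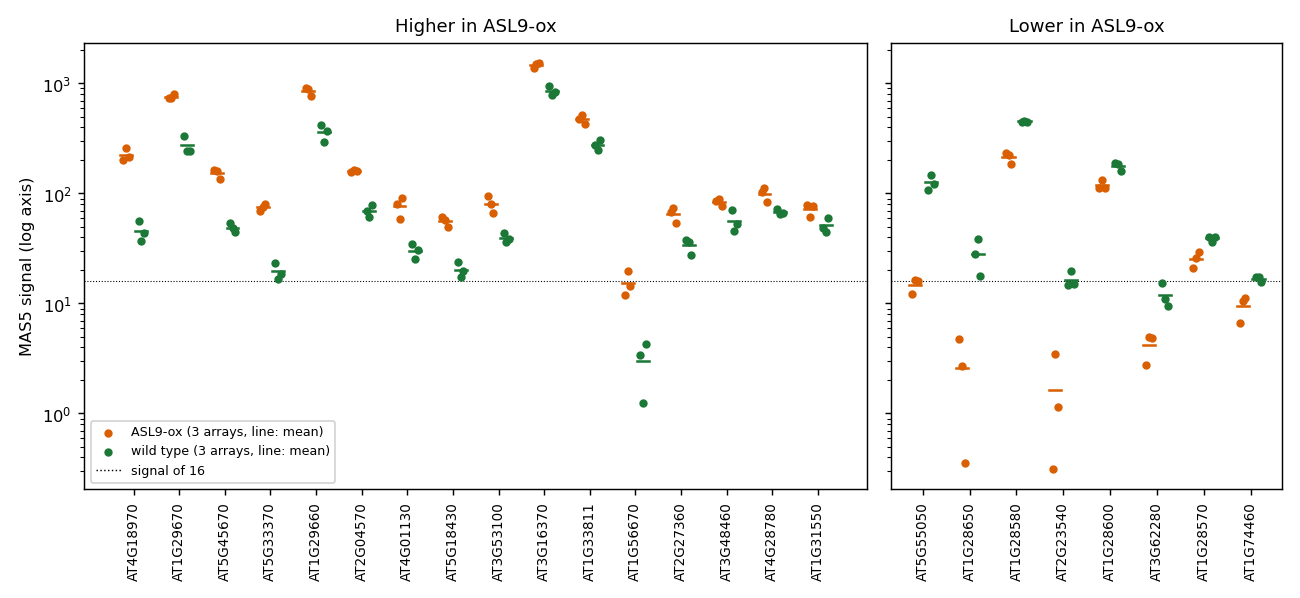
MAS5 signal (log axis) on each array of the 16 GDSL genes that rose (left) and the 8 that fell (right), with ASL9-ox in orange, wild type in green and a line at each group mean. The groups do not overlap for any gene shown, and the dotted line at a signal of 16 shows which genes were dim.

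A gene with a known place in the cuticle rose. AT5G33370 encodes CUTIN SYNTHASE 2, an enzyme of cutin assembly needed for the ridges on the surface of sepals. Its signal was 69.6, 75.8 and 79.8 on the ASL9-ox arrays, against 23.1, 16.8 and 18.7 on the wild-type arrays. Every ASL9-ox array lay above every wild-type array by a wide margin. The ratio of the group means was 3.84, and the log2 fold change was 1.36 ± 0.10 (SE, limma adjusted p = 9.05e-06). The cuticle-degrading enzyme gene CDEF1 and the genes LTL1, ESM1, FXG1, GLIP4 and GLIP5 are among the listed loci without a probe set of their own and were not analysed here.

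Among the GDSL genes known as SEED FATTY ACID REDUCERs, which lower the oil content of Arabidopsis seeds when they are active, 2 rose and 2 did not pass. AT4G18970 (SFAR5) had the largest rise of the GDSL genes tested on the log2(signal + 16) scale. It read 201, 258 and 214 on the ASL9-ox arrays, against 56.8, 37.1 and 44.0 on the wild-type arrays. The groups were far apart, with a ratio of means of 4.88 and a log2 fold change of 1.96 ± 0.13 (SE, limma adjusted p = 5.34e-06).

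AT3G48460 (SFAR4) rose by less, with 84.9, 89.6 and 77.1 on the ASL9-ox arrays, against 70.3, 45.5 and 52.4 on the wild-type arrays. Its groups were separate but close, and the log2 fold change was 0.48 ± 0.13 (SE, limma adjusted p = 0.0137). Without wild-type replicate 3 the adjusted p was 0.0501 (0.00239 to 0.0501 over all settings). AT1G54790 (SFAR1) was dim on all arrays, with 11.5, 8.62 and 13.025 in ASL9-ox and 16.2, 8.98 and 10.4 in wild type. Its groups overlapped, and the 95% interval of its log2 fold change was -0.34 to 0.27 (adjusted p = 0.850). AT2G42990 (SFAR3) read 8.68, 8.50 and 9.92 on ASL9-ox arrays and 7.54, 2.28 and 5.02 on wild-type arrays. All 3 ASL9-ox values were above all wild-type values, but at signals below 16, and the gene did not pass (log2 fold change 0.26, 95% interval -0.03 to 0.56, adjusted p = 0.140). RXF26 (AT1G58430, SFAR2) was too dim to be tested, at 0.608 to 2.24 in ASL9-ox and 0.248 to 0.947 in wild type.

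A neighbouring pair on chromosome 1 rose together. AT1G29660 and AT1G29670 lie next to each other in the annotation, with 0 genes between them, and are GDSL genes without a known substrate. AT1G29660 had signals of 904, 896 and 762 on the ASL9-ox arrays, against 418, 291 and 370 on the wild-type arrays, a log2 fold change of 1.22 ± 0.13 (SE, limma adjusted p = 7.24e-05). AT1G29670 had 739, 730 and 807 on the ASL9-ox arrays, against 336, 246 and 243 on the wild-type arrays, a log2 fold change of 1.43 ± 0.12 (SE, limma adjusted p = 1.87e-05). Both genes were bright in both groups, and their ratios of means were 2.37 and 2.76. Whether either probe set also captured RNA of the other gene was not tested.

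A longer run of neighbours on the same chromosome moved the other way or did not pass. Between AT1G28570 and AT1G28670, 9 listed loci follow each other with at most 2 other genes between them. Of these 7 had a probe set, 5 were tested, 4 fell and 1 did not pass. AT1G28580 read 231, 221 and 185 on the ASL9-ox arrays, against 449, 460 and 447 on the wild-type arrays. This bright gene was lower on every ASL9-ox array, with a ratio of 2.13 of the wild-type mean over the ASL9-ox mean and a log2 fold change of -1.04 ± 0.09 (SE, limma adjusted p = 2.23e-05).

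AT1G28650 had 4.73, 2.69 and 0.355 on the ASL9-ox arrays, against 28.4, 38.7 and 18.0 on the wild-type arrays. Its ASL9-ox signals were far below 16, so the size of its fall depends on the number added, with a log2 fold change of -1.23 at 16, -3.20 at 1 and -0.47 at 64 (adjusted p = 0.000567, 0.00169 and 0.00116). AT1G28600 fell by 0.52 on the log2 scale, with 113, 133 and 113 in ASL9-ox and 189, 185 and 161 in wild type. AT1G28570 fell by 0.41, with 20.9, 25.9 and 29.5 in ASL9-ox and 40.4, 36.5 and 40.1 in wild type. AT1G28610, which lies inside the same run, read 24.3, 28.8 and 30.2 in ASL9-ox and 33.9, 25.5 and 28.8 in wild type. Its groups overlapped, and the 95% interval of its log2 fold change was -0.29 to 0.19. This interval lay apart from those of AT1G28580 (-1.24 to -0.84), AT1G28650 (-1.64 to -0.83) and AT1G28600 (-0.73 to -0.31). It overlapped that of AT1G28570 (-0.65 to -0.18). The remaining members of the run with a probe set, AT1G28590 and AT1G28640, were too dim for the test. Whether probe sets in this run also captured RNA of a neighbouring copy was not tested.

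**Figure D4:**
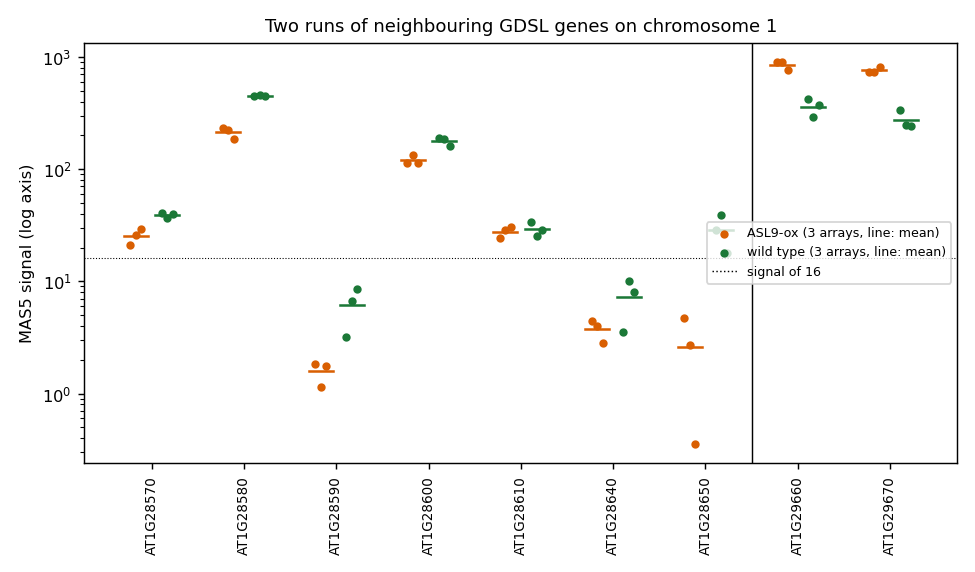
MAS5 signal (log axis) on each array for the genes of the 2 runs of neighbouring GDSL genes on chromosome 1, in their order along the chromosome, with ASL9-ox in orange, wild type in green and a line at each group mean. In the run of 7 genes on the left the ASL9-ox mean is below the wild-type mean, and the groups overlap for AT1G28610 and AT1G28640. In the pair on the right all ASL9-ox values are above the wild-type values.

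Outside these groups, AT5G45670 and AT2G04570 rose at least 2-fold. AT5G45670 read 163, 159 and 137 on the ASL9-ox arrays, against 54.0, 48.7 and 44.5 on the wild-type arrays (log2 fold change 1.38 ± 0.10, SE, limma adjusted p = 6.44e-06). AT2G04570 read 156, 164 and 160 on the ASL9-ox arrays, against 69.4, 60.9 and 78.7 on the wild-type arrays (log2 fold change 1.04 ± 0.09, SE, limma adjusted p = 2.79e-05). The ASL9-ox arrays agreed closely with each other in both genes.

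The other 9 genes that rose did so by 0.39 to 0.99 on the log2(signal + 16) scale. AT4G01130 and AT5G18430 were just under 2-fold on that scale, at 0.99 and 0.98, with ratios of means of 2.53 and 2.75. AT3G16370 was bright throughout, with 1374.5, 1506 and 1535 on the ASL9-ox arrays, against 948, 790 and 830 on the wild-type arrays, and rose by 0.77. AT1G33811 rose by 0.75, with 479, 519 and 431 in ASL9-ox and 277, 248 and 306 in wild type. AT3G53100, AT2G27360 and AT4G28780 rose by 0.79, 0.71 and 0.46, with ratios of means of 2.05, 1.94 and 1.47. AT1G56670 was dim, at 11.98, 19.6 and 14.3 in ASL9-ox and 3.40, 1.25 and 4.28 in wild type, a ratio of means of 5.14. It had a log2 fold change of 0.72, which was 2.10 with 1 added to the signal and 0.24 with 64, and it was too dim to be tested without ASL9-ox replicate 2.

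The calls of 2 of these genes depended on the scaling. AT1G31550 rose by 0.39 (adjusted p = 0.0250), with 79.0, 60.8 and 76.8 in ASL9-ox and 49.0, 45.0 and 59.8 in wild type, where the lowest ASL9-ox array was close to the highest wild-type array. It did not pass when arrays were centred on the hybridization controls (adjusted p = 0.125), nor without ASL9-ox replicate 1 (0.0855), ASL9-ox replicate 3 (0.0796), wild-type replicate 1 (0.0687) or wild-type replicate 2 (0.0773), within a range of 0.0118 to 0.125 over all settings. The adjusted p of AT4G28780 was 0.00630, and 0.0513 with that centring (0.00246 to 0.0513 over all settings).

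AT5G55050, a GDSL gene without a known substrate, had the largest fall on the log2(signal + 16) scale. Its signal was 12.1, 16.3 and 15.97 on the ASL9-ox arrays, against 108, 148 and 123 on the wild-type arrays. The groups were far apart, and the log2 fold change was -2.20 ± 0.12 (SE, limma adjusted p = 1.41e-06). The ASL9-ox signals lay around 16 and could not be set against background. The size of the fall depended on the number added, with a log2 fold change of -3.01 at 1, where that of AT1G28650 was -3.20, and -1.27 at 64.

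A further 3 genes were dim. AT2G23540, AT1G74460 and AT5G37690 are known from roots, where these enzymes have been linked to suberin, the polyester of root barrier tissue. AT2G23540 read 0.314, 3.44 and 1.15 on the ASL9-ox arrays, against 14.6, 19.9 and 15.1 on the wild-type arrays, a log2 fold change of -0.88 ± 0.13 (SE, limma adjusted p = 0.000591). The gene was near or below 16 on every array, and its log2 fold change was -2.90 with 1 added and -0.29 with 64. It was too dim to be tested without wild-type replicate 2 or wild-type replicate 3. When the probe sets tested with all arrays were kept, an alternative chosen after seeing the data, it passed without wild-type replicate 2 (log2 fold change -0.81, adjusted p = 0.00214; 5.04e-05 to 0.00303 over all settings).

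AT1G74460 and AT5G37690 were the tested genes closest to the threshold on its inner and outer side. AT1G74460 read 6.70, 10.6 and 11.3 in ASL9-ox and 17.4, 17.4 and 15.6 in wild type, a log2 fold change of -0.37 with an adjusted p of 0.0312. The call was lost without ASL9-ox replicate 1 (adjusted p = 0.0945), wild-type replicate 1 (0.0806), wild-type replicate 2 (0.0745) or wild-type replicate 3 (0.0610), and with the replicate number as a block (0.0627), within a range of 0.0157 to 0.0945 over all settings. AT5G37690 read 9.08, 7.53 and 5.59 in ASL9-ox and 14.9, 12.4 and 12.1 in wild type, a log2 fold change of -0.32 with an adjusted p of 0.0529. All 3 ASL9-ox values were below all wild-type values, and the gene passed under 4 of the alternative settings (0.0225 to 0.146 over all settings). PYK10, given above, was lower on the ASL9-ox arrays too, and the part of root tissue in the values of these 3 genes was not tested.

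AT3G62280, the last of the genes that fell, was below 16 on all arrays, at 2.73, 4.98 and 4.87 in ASL9-ox and 15.3, 11.04 and 9.41 in wild type. Its log2 fold change was -0.46 with an adjusted p of 0.0180, and without ASL9-ox replicate 1 the adjusted p was 0.0556 (0.00792 to 0.0556 over all settings). It was too dim to be tested without wild-type replicate 1.

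The 15 genes that did not pass had log2 fold changes between -0.33 and 0.31, and 6 of them had both group means below 16. For 4 of the 15 the groups did not overlap. These were AT5G37690, AT2G19050, AT2G42990 and AT3G14220. AT3G14220, which lies next to the glucosinolate hydrolysis gene ESM1, was bright on all arrays, with 374, 338 and 369 in ASL9-ox and 431, 414 and 397 in wild type. Its log2 fold change was -0.19 (95% interval -0.36 to -0.03, adjusted p = 0.0582), and it passed only with each array centred on its median (adjusted p = 0.0215; 0.0215 to 0.170 over all settings). AT2G38180 and AT1G09390, both well above 16, had 95% intervals of -0.21 to 0.22 and -0.08 to 0.35, so a change of 2-fold lay outside the interval for each.

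For 3 of these 15 genes wild-type replicate 2, the array with seed transcripts, was the highest of the 6 arrays. It was also the highest of the wild-type arrays, but not of all arrays, in AT1G09390 and AT2G19050. AT5G22810 read 8.43, 0.945 and 7.45 on the ASL9-ox arrays, and 4.85, 29.9 and 4.22 on the wild-type arrays. AT1G71691 read 15.5, 12.6 and 16.2 on the ASL9-ox arrays, and 10.1, 34.9 and 12.6 on the wild-type arrays. In both genes the confidence intervals were the widest among the 39 genes tested, from -1.01 to 0.34 and from -0.64 to 0.38. Without that array AT5G22810 was too dim to be tested, and AT1G71691 had a log2 fold change of 0.17 (adjusted p = 0.348; 0.311 to 0.839 over all settings).

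AT5G14450 read 99.1, 98.6 and 97.2 on the ASL9-ox arrays and 72.6, 102 and 58.7 on the wild-type arrays. Its groups overlapped only through wild-type replicate 2. With all arrays the log2 fold change was 0.31 (adjusted p = 0.118), and without that array it was 0.49 (adjusted p = 0.00594; 0.00594 to 0.370 over all settings). Without wild-type replicate 2, of the 37 GDSL genes then tested, 16 rose and 6 fell. AT2G23540 was not tested there, and AT1G74460 did not pass. With the probe sets tested with all arrays kept, 16 of 39 rose and 7 fell.

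**Figure D5:**
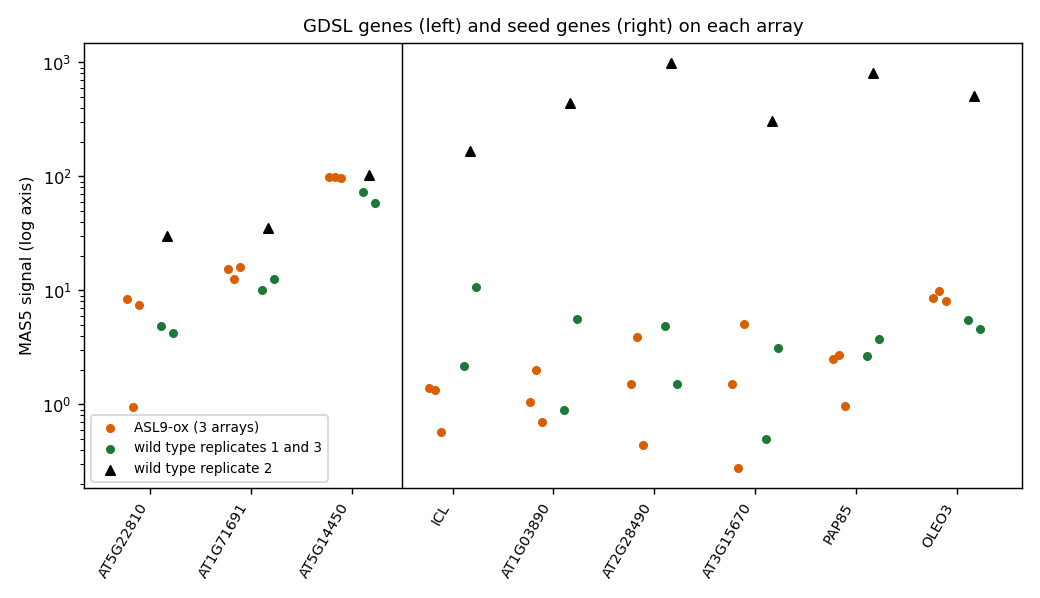
MAS5 signal (log axis) on each array for 3 GDSL genes (left of the line) and for the glyoxylate cycle gene ICL and the 5 measured seed maturation markers (right), with ASL9-ox in orange, wild-type replicates 1 and 3 in green and wild-type replicate 2 as a black triangle. The triangle is the highest value of every gene shown, by the widest margin in the seed genes.

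The 10 members left out as too dim had signals between 0.248 and 11.4 on all arrays. For 3 of them, AT1G06990, AT1G28590 and AT3G27950, all ASL9-ox values were below all wild-type values. This state was reached by 21.2% of the probe sets tested, a brighter set. AT1G28590, in the run of neighbours described above, read 1.85, 1.13 and 1.77 in ASL9-ox and 3.17, 6.67 and 8.46 in wild type. With no filter on dim probe sets, 2 of the 10 passed as lower and 0 as higher, while 29.3% of all 22746 probe sets, bright ones included, were called. The 2 were AT1G28590 and AT3G27950 (adjusted p = 0.0439 and 0.0383), at signals that cannot be set against background. The others were AT1G28640, AT1G58430, AT2G19010, AT2G19060, AT2G40250, AT3G50400 and AT5G45910.

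Few genes that act around these enzymes could be read with the annotation used. Of the 22810 probe sets it pairs 13513 with 1 gene and 503 with several. The remaining probe sets, controls included, are not paired with a gene in it. A gene without a probe set here can still be read by a probe set that the annotation does not name. Of 13 cutin, 13 suberin, 9 cuticle lipid export and 9 glucosinolate breakdown genes listed, 0 had a probe set paired with them alone. Of 15 wax genes only WSD1, which makes wax esters, had one, and it was too dim to be tested. Among 13 regulators of cuticle and suberin genes 2 were measured and 1 was tested. This gene, AT5G61590 (DEWAX), encodes a repressor of wax genes. It rose, with 832, 587 and 599 on the ASL9-ox arrays, against 280, 231 and 207 on the wild-type arrays (log2 fold change 1.42 ± 0.15, SE, limma adjusted p = 7.15e-05). The other, SHN3, was at 1.26 to 1.96 in ASL9-ox and 1.93 to 5.99 in wild type.

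Of 14 genes of seed oil breakdown 4 were measured and 3 tested, of which 2 fell. SDP1, which encodes the main lipase of oil stores in germinating seeds, read 98.5, 112 and 91.6 on the ASL9-ox arrays, against 128, 158 and 151 on the wild-type arrays (log2 fold change -0.47 ± 0.10, SE, limma adjusted p = 0.00532). AT3G14360 (OBL1), an oil body lipase gene, read 30.0, 27.6 and 30.7 in ASL9-ox and 55.8, 121 and 59.4 in wild type. The highest of these was wild-type replicate 2, and the log2 fold change of AT3G14360 was -0.99 with all arrays and -0.70 without that array (adjusted p = 0.00520 and 0.000805). ICL, an enzyme gene of the glyoxylate cycle, read 1.39, 1.32 and 0.576 in ASL9-ox and 2.18, 168 and 10.7 in wild type, and did not pass (adjusted p = 0.140). It passed with hybridization control centring (adjusted p = 0.0246) and without wild-type replicate 1 (0.0417), within a range of 0.0246 to 0.344 over all settings, and was too dim to be tested without wild-type replicate 2. With the probe sets tested with all arrays kept, its log2 fold change without that array was -0.37, in place of -1.39 with all arrays.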

How the data were processed

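Total RNA of 6 samples was measured on 6 ATH1 arrays. The deposited table holds 1 intensity per probe set and array, made by the authors with MAS5 and GCOS, per the submitters' processing notes, whose versions the sources used here do not give. With the outer 2% at each end removed, every array averaged about 100.01: the values had been brought to 1 common mean, which hides a shift of all transcripts in 1 direction.

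Of 13513 probe sets paired with 1 gene, 13436 matched the RefSeq table of TAIR10.1, which gave names and gene order. The members and lists were chosen with earlier results of these data known. All loci with a probe set could be named. Values on every array are given for genes past the threshold and at least 2-fold changed, for those with a known role and for those nearest the threshold, and in part for others chosen after their values were seen, as was the suberin background.

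The 64 Affymetrix controls and the dimmest 25% of the other probe sets by mean log2 level were left out. Signals plus 16 were taken to log2 and fitted with limma 3.58.1 in R 4.3.3 (lmFit, eBayes with an intensity trend, two-sided, ASL9-ox minus wild type, all 6 arrays, no covariate), with Benjamini-Hochberg adjustment over 17059 probe sets. The procedure was tested on simulated data. Alternatives changed the scaling, the number added, the filter, the eBayes options, array weights, a replicate block, the threshold and the arrays used, and in the scaling alternatives arrays were scaled before the number was added. Figures were drawn with matplotlib 3.10.9.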

Additional observations from a re-analysis of the deposited data

How the results depend on the processing

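Under 20 alternatives, 1 of them chosen after seeing the data (without wild-type replicate 2, on the probe sets tested with all arrays), the 39 GDSL genes gave 752 values. Of these 724 stayed on the same side of the threshold, 20 lost a call and 8 gained one. The sign turned in 0 values of the called genes and in 23 values of 8 genes that did not pass. The causes were not tested. Of the 24 called genes 18 kept their call in every alternative that tested them. With 1 array left out in turn, 15 to 16 genes were higher, 6 to 8 lower and 8 to 11 changed at least 2-fold. With 1 added to the signal 15 genes, and with 64 added 4, were changed at least 2-fold, in place of 9. With the dimmest 50% left out 22 genes were tested and 3 fell in place of 8. At a threshold of 0.01, 5 fell, and 2540 of all probe sets were higher in place of 4203. Centring on the hybridization controls, whose mean log2 signal was 7.10 to 7.22 on ASL9-ox arrays and 6.88 to 7.25 on wild-type arrays, gave 2272 higher probe sets. The median log2 fold change of the GDSL genes tested was 0.30 with 1 added, 0.0297 with no filter and 0.60 with the dimmest 50% left out, in place of 0.16. The last 2 tested other sets of genes. In the fit with a replicate block 16 GDSL genes rose and 7 fell, and AT1G74460 was the call lost. Same-numbered arrays deviated from their group means with correlations of -0.12, -0.06 and 0.02, and arrays of unlike number with -0.04 to 0.11. With 3 arrays per group these values cannot show whether same-numbered samples were handled together. Each gene has 1 probe set, so averaging probe sets changed nothing. Signals below 16 limit what can be said of the dim genes, since no detection calls were used.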
